A study of Mus musculus with 4 samples.

Results

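The genes described here encode 3 ligands and 2 receptors of the platelet-derived growth factor (PDGF) family. They are the ligand genes Pdgfa, Pdgfb and Pdgfc and the receptor genes Pdgfra and Pdgfrb, taken by symbol from the 27998 genes of the count tables. Each symbol had 1 row, so all 5 genes were found in all 4 single-cell RNA-seq libraries. The libraries came from Swiss Webster mouse embryos of the genotype Mesp1Cre;Rosa26-GFPflox/+ at 4 embryonic stages, E8.0, E8.25, E9.5 and finally E10.5, with 1 library of pooled embryos per stage. Where 4 values follow each other, they are in this order. In these embryos Cre is made from the Mesp1 gene of early mesoderm, and every descendant of a cell that made Cre carries GFP. Living GFP-positive cells were sorted, so lineages outside Mesp1-derived mesoderm, such as neural crest and surface epithelium, were not the target of the sort. For the earlier pair of stages the upper body was dissected, and for the later pair the pharyngeal apparatus with the heart. Between these pairs stage and dissected tissue therefore cannot be told apart, and no difference between stages has a replicate.

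PDGF ligands are secreted as disulfide-linked dimers and act on neighbouring cells through receptor tyrosine kinases, which dimerise, phosphorylate each other and recruit PI3 kinase, phospholipase C gamma and adaptors of the Ras pathway. PDGF-AA and PDGF-CC act mainly through the alpha receptor, encoded by Pdgfra, and PDGF-BB through the beta receptor, encoded by Pdgfrb, as well as the alpha receptor. In embryos the ligand and the receptor are typically made by adjacent tissues: Pdgfra marks mesenchyme, and endothelial Pdgfb draws Pdgfrb-positive mural cells to vessels.

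Levels are given as CPM, a gene's unique molecular identifiers (UMIs, each standing for 1 captured transcript) scaled to a common total of UMIs in every group of cells. The kit reads the 3' end and counts each molecule once, so no gene length enters. How well the transcripts of each gene are captured was not measured, so different genes are compared by captured UMIs only. After filtering, 7118, 2884, 3921 and 7525 cells were retained, with median depths of 21321, 35216, 17254 and 15205 UMIs. Libraries shared between 16 and 88 cell barcodes in pairs. Intervals in brackets are exact 95% intervals that cover counting error only.

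Cells were placed in 4 compartments by the number of fixed marker genes with at least 1 UMI. A mesenchyme cell held at least 5 of 8 markers, an endothelial cell 5 of 10, a cardiomyocyte 7 of 10 and a proepicardial cell 4 of 8. The mesenchyme compartment held 1477, 1138, 974 and 2774 cells from E8.0 to E10.5, the endothelial 573, 204, 242 and 415, and the cardiomyocyte 318, 52, 372 and 213. The proepicardial compartment held 38, 82 and 232 cells from E8.25, and its 5 cells at E8.0 were not used. These are ranges of a score and not separate populations: at E10.5, 1218 of all retained cells had exactly 5 mesenchyme markers and 1171 had 1 fewer. Markers were counted at each cell's full depth, so membership also depends on the depth of a library. Stage ratios within compartments were not redone with gates set at a common depth. Each compartment's own markers were present, with a median of 5 to 6 of 8 detected in mesenchyme, 7 to 9 of 10 in endothelial cells and 8 to 10 of 10 in cardiomyocytes. The proepicardial label was weaker. Its cells held a median of 4, 4 and 6 of 8 markers, Msln had no UMI there at E8.25 or E9.5, and at E8.25 the same cells held a median of 5 of 8 mesenchyme markers. At E8.25, 33 retained cells had exactly 4 proepicardial markers, the minimum. When cells were clustered instead, no cluster of that library took the proepicardial name. Proepicardial values from E8.25 to E10.5 therefore may not follow a single cell type. Between 927 and 4569 cells per library entered no compartment, which are described where they matter.

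Pdgfa lies on chromosome 5 (ENSMUSG00000025856, 138976014 to 139000792), as does Pdgfra (ENSMUSG00000029231, 75151322 to 75198206), in the mouse build GRCm38.p6. Pdgfb is on chromosome 15 (ENSMUSG00000000489, 79995865 to 80024614) and Pdgfc on chromosome 3 (ENSMUSG00000028019, 81036416 to 81214040). The stretches upstream of a listed transcript start of Pdgfa, Pdgfc and Pdgfra are shown because these 3 genes took different courses in mesenchyme over the stages. Each is the 250 bases before a RefSeq transcript start, written 5′ to 3′ on the gene's strand, with CG dinucleotides in capitals. The Pdgfa and Pdgfra stretches lie inside the gene spans given above, so they precede inner starts and not the outermost one. The Pdgfc stretch ends where the span of that gene begins.
Pdgfa, chr5:138994945-138995194, minus strand: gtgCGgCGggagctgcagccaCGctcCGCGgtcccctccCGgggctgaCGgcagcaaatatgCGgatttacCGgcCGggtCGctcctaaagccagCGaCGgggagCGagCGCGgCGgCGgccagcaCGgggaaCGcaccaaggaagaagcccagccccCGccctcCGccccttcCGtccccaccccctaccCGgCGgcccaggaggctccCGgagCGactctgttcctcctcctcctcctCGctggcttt
Pdgfc, chr3:81036166-81036415, plus strand: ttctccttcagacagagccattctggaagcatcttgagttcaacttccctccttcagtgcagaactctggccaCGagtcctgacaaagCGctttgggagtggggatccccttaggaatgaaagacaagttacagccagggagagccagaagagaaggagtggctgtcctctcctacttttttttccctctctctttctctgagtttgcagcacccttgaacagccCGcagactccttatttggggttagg
Pdgfra, chr5:75152001-75152250, plus strand: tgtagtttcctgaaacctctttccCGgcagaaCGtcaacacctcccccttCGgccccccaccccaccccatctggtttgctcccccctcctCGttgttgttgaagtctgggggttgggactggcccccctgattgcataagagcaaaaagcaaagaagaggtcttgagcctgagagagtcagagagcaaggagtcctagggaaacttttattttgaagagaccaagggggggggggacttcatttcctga
The Pdgfa stretch held 28 CG dinucleotides, more than in 92.4% of 32851 such promoter stretches of 27025 genes, and 2 matches to GGGCGG or its complement CCGCCC. A second listed Pdgfa start (chr5:138994282-138994531), also inside the gene span, had 19 CG and 1 such match. By contrast, the Pdgfc stretch held 3 CG and the Pdgfra stretch 4, against a median of 6 over all promoters, and neither held GGGCGG, which 32.7% of promoters did. No TATAAA on either strand was found in any of them, and 12.4% of promoters had it. Overlapping matches were counted, and a match describes the letters only. RefSeq entries for Pdgfb and Pdgfrb were not used here.

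Pdgfa, whose product is the dedicated ligand of the alpha receptor had its highest level in mesenchyme at E8.0 and in other compartments at the later stages. In mesenchyme Pdgfa was at 65.2 CPM (62.7 to 67.8), 14.2 (13.1 to 15.3), 8.62 (7.38 to 10.02) and 9.43 (8.55 to 10.4). The E8.0 library stood far above the other 3. Its mesenchyme level at E10.5 was 0.145 times that at E8.0, a log2 ratio of -2.79 (-2.94 to -2.64). Most of that step lay between E8.0 and E8.25, with a log2 ratio of -2.20 (-2.33 to -2.07). Both of those libraries came from the upper body.

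In cardiomyocytes Pdgfa was at 22.6, 12.1, 35.3 and 45.9 CPM. Its first step was downwards there too (log2 ratio of E8.25 over E8.0 -0.90, -1.64 to -0.23), and both later libraries lay above the E8.0 one. The E10.5 level was 2.03 times that at E8.0 (log2 ratio 1.02, 0.68 to 1.36), and the value at E8.25, from 52 cells and 21 UMIs, was the lowest. Endothelial Pdgfa was at 34.8, 43.3, 21.8 and 14.7 CPM in the same order, highest at E8.25 and lowest at E10.5. Proepicardial Pdgfa, measured from E8.25, was at 25.7, 13.2 and 49.5 CPM. As a result mesenchyme held the highest Pdgfa of the 3 compartments measured at E8.0 and the lowest of all 4 at E9.5 and E10.5.

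**Figure D1:**
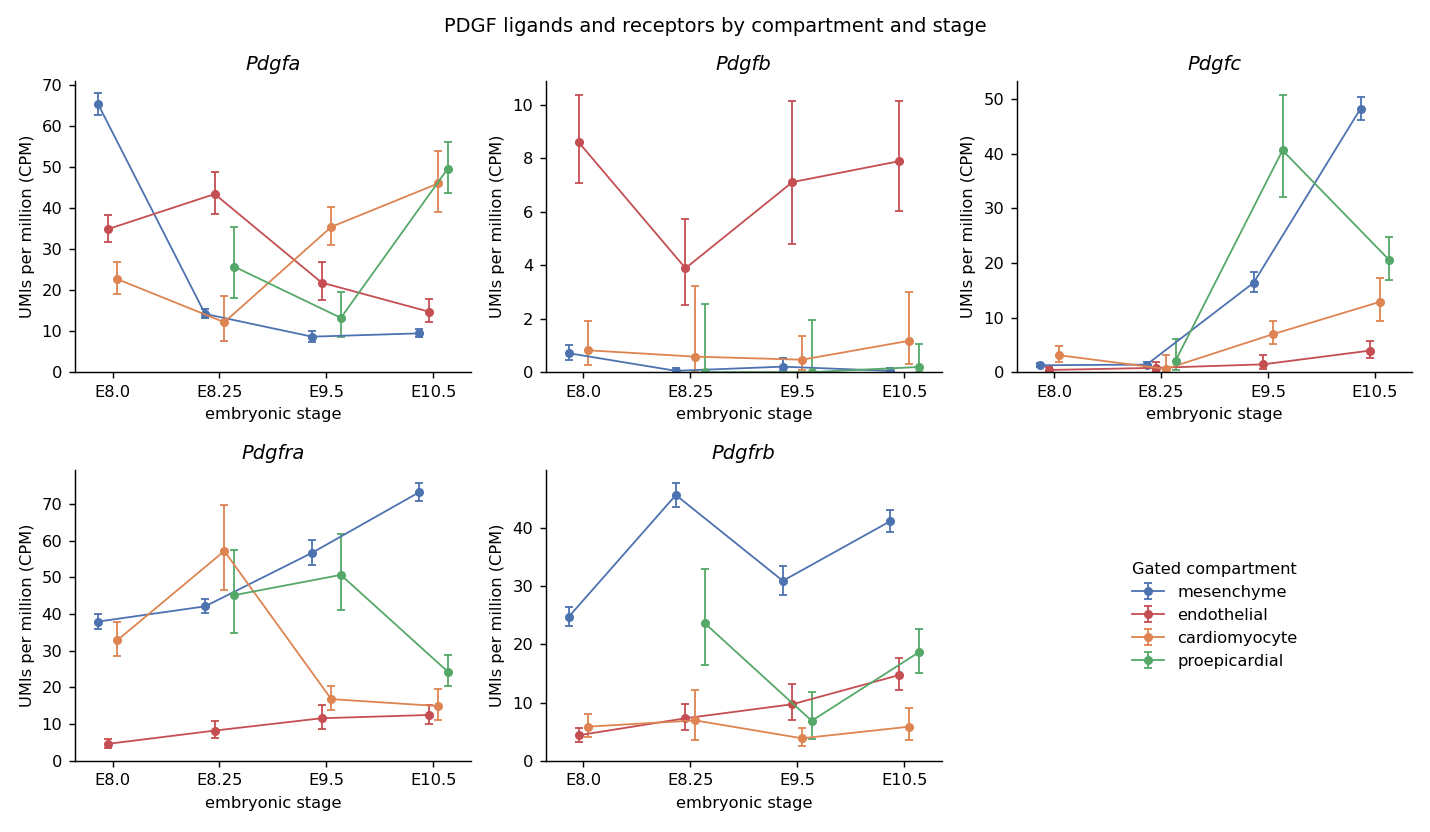
Level of each gene in CPM (y axis, linear, a separate scale for each gene) at 4 stages (x axis) in each marker-gated compartment. Points are single libraries and bars are exact 95% Poisson intervals for counting error only. Pdgfb is highest in the endothelial compartment at every stage, Pdgfa of mesenchyme drops from 65.2 to 14.2 CPM between E8.0 and E8.25, and Pdgfc of mesenchyme climbs to 48.3 CPM at E10.5.

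Markers of other cell types were read in the same mesenchyme cells. The summed level of 7 epithelial markers was 406, 255, 86.5 and 17.1 CPM, and so went down over the stages as Pdgfa did. Nearly all of it was Krt8, a keratin of simple epithelia, and without Krt8 the other 6 epithelial markers summed to 4.28, 1.42, 2.23 and 4.49 CPM. The summed level of 7 neural crest markers was 41.2, 91.6, 58.4 and 127 CPM, and 16.4, 24.3, 20.4 and 53.1 CPM without Sox9, which mesenchyme that forms cartilage also makes. It was lowest at E8.0 and highest at E10.5, as were Pdgfra and Pdgfc in these cells, and its part in their levels was not tested. The summed level of 8 erythroid markers, led by embryonic globins, was 124, 2983, 10.0 and 4957 CPM, high in the E8.25 and E10.5 libraries. With haemoglobin, mitochondrial and ribosomal protein genes left out of the totals, the number of the 5 genes that differed by 2-fold between E8.0 and E10.5 in mesenchyme stayed at 3.

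Pdgfa moved with the number of mesenchyme markers in a cell upwards at E8.0 and downwards in the other 3 libraries. Among cells of the mesenchyme compartment and of no compartment at E8.0, Pdgfa was at 18.7 to 22.8 CPM in cells with 0 to 3 markers, 34.4 with 4, 56.9 with 5, 79.7 with 6 and 70.7 with 7 or 8. At E8.25 it was at 33.2 CPM with 1 marker and 13.1 with 7 or 8. At E9.5 Pdgfa fell from 64.5 CPM in the 38 cells with no marker to 21.5 with 3 and 5.40 with 7 or 8. At E10.5 the corresponding values were 71.6 (54 cells), 24.2 and 6.87 CPM. Median depth moved with the marker number in every library, from 10174 to 28342 UMIs at E8.0 and from 8602 to 16875 at E10.5, and its part in these orders was not tested.

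**Figure D2:**
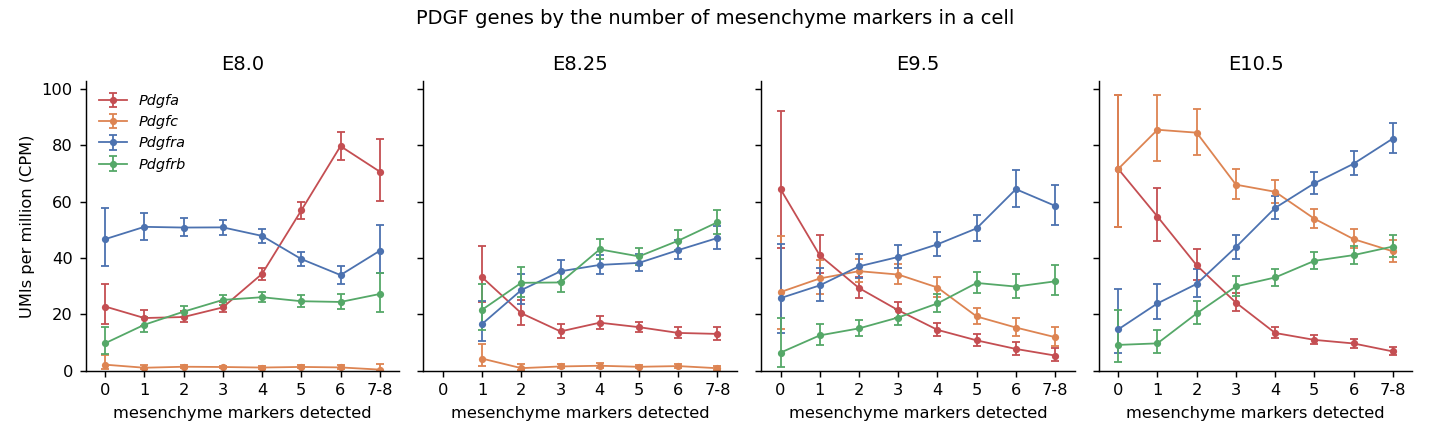
Level of 4 genes in CPM (y axis, shared) against the number of mesenchyme markers detected in a cell (x axis, 7 and 8 joined) in each library, for cells of the mesenchyme compartment and of no compartment. Bars are exact 95% Poisson intervals, and groups under 30 cells are left out. At E10.5 Pdgfra and Pdgfrb climb to 82.4 and 44.1 CPM with marker number while Pdgfa falls to 6.87 CPM. At E8.0 Pdgfa climbs instead, and Pdgfra goes from 51.1 CPM with 1 marker to 34.0 with 6.

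Averaged over libraries, the Pdgfa levels of the compartments were close: 29.5 ± 18.5 CPM in proepicardial cells (SD, n = 3), 29.0 ± 14.7 in cardiomyocytes, 28.7 ± 12.8 in endothelial cells and 24.4 ± 27.4 in mesenchyme (n = 4 each). No pair of compartments passed the test for Pdgfa, with adjusted p between 0.362 and 0.967 (edgeR quasi-likelihood test with library as a block, Benjamini-Hochberg adjusted over 12386 genes). With the block, these p-values set the difference between compartments against variation from library to library. That variation was estimated jointly from all 4 compartments and moderated over genes, and not from the pair alone. The p-values do not measure the SDs above, and the libraries are of different stages. The spread of mesenchyme Pdgfa exceeded its mean, and leaving out the E8.0 library brought the cardiomyocyte difference to a log2 fold change of 1.73 with adjusted p = 0.0425.

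Pdgfb, the ligand that endothelium uses to recruit mural cells, was low overall and, among the 4 compartments, concentrated in endothelial cells. The few cells gated as megakaryocytes, described at the end, had higher values at E9.5 and E10.5. Endothelial Pdgfb was at 8.60 CPM (7.07 to 10.4), 3.88 (2.51 to 5.73), 7.10 (4.79 to 10.1) and 7.89 (6.02 to 10.2). In mesenchyme it was at 0.705, 0.0474, 0.203 and 0.0449 CPM, from 27, 2, 4 and 2 UMIs. The 4 endothelial values all lay above the 4 mesenchyme values. Pdgfb was higher in endothelial cells by a log2 fold change of 5.05 ± 0.53 (SE), 33.2-fold, with an adjusted p of 3.26e-05 in edgeR. The fit tested only genes with enough UMIs in several sums, and Pdgfb met this through its endothelial sums alone. Its test is therefore not independent of its high endothelial level. The call was also made in a fit without this filter.

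Against cardiomyocytes, whose Pdgfb was at 0.814, 0.578, 0.463 and 1.17 CPM from 1 to 5 UMIs per library, endothelial Pdgfb was 10.6-fold higher (log2 fold change 3.401 ± 0.61, adjusted p = 0.00103). In proepicardial cells Pdgfb had 0 UMIs at E8.25 and E9.5, where 3 UMIs would stand at 2.08 and 1.58 CPM, and 1 UMI at E10.5. The endothelial level was higher there too (adjusted p = 0.00283), and no fold is given for a single UMI. All 3 of these calls held under each of 12 or 13 alternative settings. The order of mean levels was endothelial (6.87 ± 2.08 CPM), cardiomyocyte (0.756 ± 0.312), mesenchyme (0.250 ± 0.312) and proepicardial (0.0633 ± 0.110). The last 3 did not pass a test against each other, with adjusted p from 0.0928 to 0.860.

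Of all Pdgfb UMIs, endothelial cells held 60.8% (53.3 to 67.9), 73.5% (55.6 to 87.1), 61.2% (46.2 to 74.8) and 60.6% (50.3 to 70.3), while they made up 5.51% to 8.05% of the retained cells. After each cell was thinned to 10000 UMIs, 8.02%, 5.94%, 6.80% and 5.52% of endothelial cells had a Pdgfb UMI, from 511, 202, 206 and 362 cells, with 62, 2, 36 and 53 shallower cells left out. Before thinning these shares were 14.7%, 10.3%, 9.92% and 9.64%. In erythroid cells, which should lack the gene, the thinned share was 0% of 156 cells at E8.0 and 0% of 370 at E8.25. The exact intervals of these 0 shares reach 2.34% and 0.992%. At E10.5 the erythroid share was 0.105% of 948. Their median depths were 34973, 51168 and 28309 UMIs against 22544, 30739 and 17691 in the endothelial cells of those stages. The endothelial share was above that reference in each of the 3 libraries, and most endothelial cells had no Pdgfb UMI at this depth. Endothelial cells also held 7 megakaryocyte markers at a summed 22.1, 22.7, 22.3 and 27.5 CPM. In mesenchyme these markers were at 0.731, 0.711, 4.21 and 10.9 CPM. Their part in endothelial Pdgfb was not tested.

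**Figure D3:**
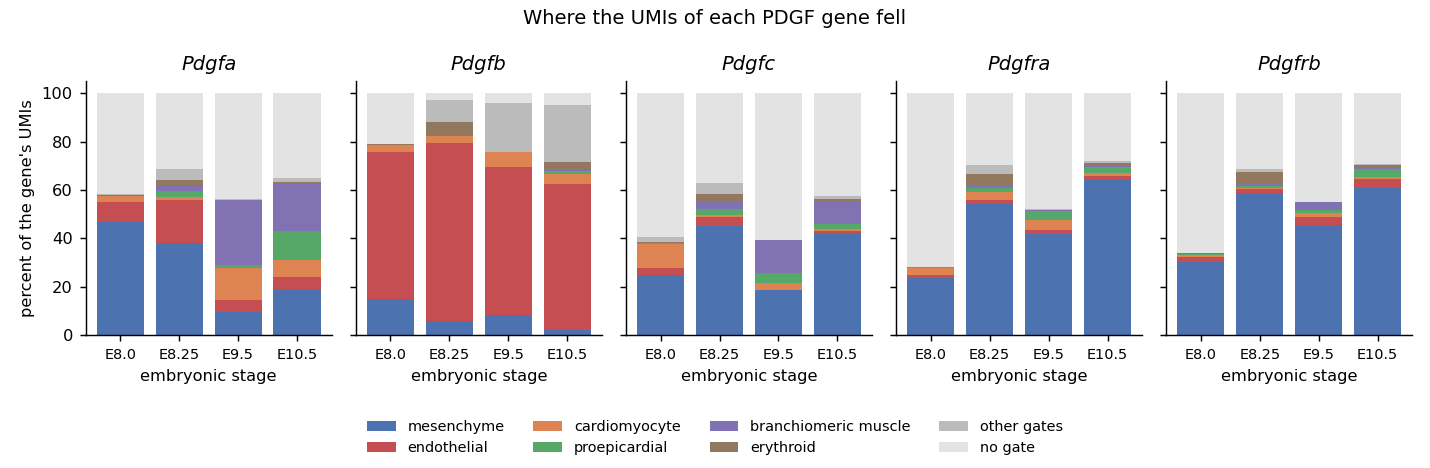
Percent of each gene's UMIs (y axis, 0 to 100) that fell in each gated compartment, in other gates and in no gate, by stage (x axis). Bars are single libraries, with 34 to 181 Pdgfb UMIs and 129 to 6136 of the other genes. Endothelial cells hold 60.6% to 73.5% of Pdgfb, mesenchyme holds 64.0% of Pdgfra and 61.0% of Pdgfrb at E10.5, and branchiomeric muscle cells hold 26.9% of Pdgfa at E9.5.

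Endothelial cells were also split by genes other than the 5 described. Cells with a UMI of Nfatc1, a transcription factor of endocardium, had Pdgfb at 10.2, 3.17, 4.50 and 6.73 CPM, against 7.78, 4.18, 9.45 and 8.69 in those without. The 2 sets overlapped. Of all genes tested, 0.0689% were called, and 0 of the 4 PDGF genes tested were (0 also at an unadjusted p under 0.05, and 0 with DESeq2). Of 4 listed endocardial markers, which include Nfatc1 itself, only 1 was called. A split by a UMI of 1 gene thus separated the cells weakly, and it cannot show whether endocardial cells differ in PDGF genes. Pdgfc was too low to test.

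Cells with 2 or more of 8 arterial markers had Pdgfb at 9.61, 5.12, 9.30 and 8.79 CPM. Those with none could be summed only at E9.5 and E10.5, from 36 and 31 cells, with Pdgfb at 5.87 and 2.01 CPM from 3 and 1 UMIs. The log2 fold change was 1.18 ± 0.71, which did not pass (adjusted p = 0.702). Here 0.892% of genes were called and 0 of the 4 PDGF genes tested (0 at an unadjusted p under 0.05, 0 with DESeq2), and the side without arterial markers rests on the few Pdgfb UMIs given.

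Pdgfc, a ligand that is secreted latent and is activated by proteolysis outside the cell, rose most over the stages. Over all retained cells Pdgfc was at 1.27, 1.22, 24.8 and 39.8 CPM. In mesenchyme it was at 1.25 (0.924 to 1.66), 1.37 (1.04 to 1.78), 16.4 (14.6 to 18.3) and 48.3 CPM (46.3 to 50.4). The 2 early libraries could not be told apart by counting error (log2 ratio 0.13, -0.44 to 0.72), and both lay far below the 2 late ones. The mesenchyme level at E10.5 was 38.5 times that at E8.0, a log2 ratio of 5.27 (4.86 to 5.71).

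The gain was not limited to mesenchyme. Cardiomyocyte Pdgfc was at 3.09, 0.578, 6.94 and 12.9 CPM, and proepicardial Pdgfc at 2.08, 40.7 and 20.5 CPM from E8.25. Cells in no compartment had 1.29, 1.69, 32.8 and 69.4 CPM, more than mesenchyme at both late stages. Within the E10.5 library Pdgfc was at 71.6 to 85.5 CPM in cells with 0 or 1 mesenchyme marker and at 42.4 CPM in those with 7 or 8. Endothelial Pdgfc was at 0.391, 0.777, 1.42 and 3.94 CPM from 5, 5, 6 and 30 UMIs, the lowest of the compartments except at E8.25, where cardiomyocytes had 1 UMI. Erythroid cells had 2.48 CPM at E10.5.

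Pdgfc was lower in endothelial cells than in mesenchyme in 4 of 4 libraries, 6.94-fold, with a log2 fold change of -2.79 ± 0.62 and adjusted p = 0.00503. This call was lost without the library block (adjusted p = 0.0754) and with clusters in place of gates (0.0854), and the 2 sets of values overlapped across stages. Pdgfc was also lower in endothelial than in proepicardial cells by 9.16-fold (adjusted p = 0.00807), a call that was lost without the block (0.0786), without E9.5 (0.162), with gates set on thinned cells (0.0671) and with clusters (0.0543). Compartment means ran from 21.1 ± 19.3 CPM in proepicardial cells to 16.8 ± 22.2 in mesenchyme, 5.87 ± 5.35 in cardiomyocytes and 1.63 ± 1.60 in endothelial cells. Neighbours at the top of this order did not pass a test (0.707 for proepicardial against mesenchyme, 0.266 for cardiomyocyte against mesenchyme). The last pair did, at adjusted p = 0.0418, and lost it in 8 of 12 alternatives, including each library left out in turn.

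As shares of mesenchyme cells with a UMI after thinning, Pdgfc was at 1.18%, 1.58%, 13.3% and 34.5% (3.05%, 4.39%, 23.2% and 44.3% before). Pdgfa went from 34.3% to 12.0%, 7.49% and 7.74% (52.8%, 32.5%, 12.4% and 11.1% before). Between 0 and 371 mesenchyme cells per library were too shallow, leaving 1439, 1138, 935 and 2403, with median depths of 25185, 35363, 19267 and 15440 UMIs. In erythroid cells the thinned share was 0.641%, 0.270% and 2.004% for Pdgfc and 0.641%, 1.08% and 0.527% for Pdgfa at E8.0, E8.25 and E10.5. The Pdgfc share of mesenchyme was above the erythroid one in each of these libraries, and the early comparisons rest on 1 erythroid cell with a UMI each. In CPM, erythroid Pdgfc was at 0.183 and 0.207 in the early libraries, below the mesenchyme intervals. Of these 2 ligands, the one with more captured UMIs in mesenchyme at E8.0 was Pdgfa, at 65.2 against 1.25 CPM. At E10.5 it was Pdgfc, at 48.3 against 9.43 CPM.

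Pdgfra, the alpha receptor gene and a classical marker of mesenchyme, had its highest mean among the 4 compartments in mesenchyme. There it was at 37.97 CPM (36.04 to 39.97), 42.1 (40.2 to 44.1), 56.7 (53.4 to 60.1) and 73.2 (70.7 to 75.8). The values rose from stage to stage, each step outside counting error, and E10.5 stood at 1.93 times E8.0 (log2 ratio 0.95, 0.86 to 1.04). The step from E8.0 to E8.25 depended on the marker number. Pdgfra went from 39.7 to 38.3 CPM with 5 markers, 34.0 to 42.8 with 6 and 42.6 to 47.1 with 7 or 8. In cells with 4 markers, just outside the gate, it went from 47.9 to 37.6 CPM. Cells in no compartment had Pdgfra at 49.8, 34.2, 39.6 and 46.0 CPM, above mesenchyme at E8.0, where they held 71.7% of its UMIs, and below it in the other 3 libraries. Within the E8.0 library Pdgfra was lower in cells with more mesenchyme markers, at 51.1 CPM with 1 marker, 34.0 with 6 and 42.6 with 7 or 8, whereas at E10.5 it went from 14.7 CPM with none to 82.4 with 7 or 8. Over all retained cells Pdgfra was nearly flat, at 40.5, 30.9, 37.99 and 39.8 CPM.

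In cardiomyocytes Pdgfra was at 32.9, 57.2, 16.8 and 14.9 CPM, highest at E8.25 and lower at both late stages than at both early ones. The E10.5 level was 0.454 times that at E8.0 (log2 ratio -1.14, -1.61 to -0.69), the opposite direction to mesenchyme. Proepicardial Pdgfra was at 45.2, 50.7 and 24.3 CPM from E8.25 to E10.5. Endothelial Pdgfra was at 4.61, 8.23, 11.6 and 12.5 CPM, below every other compartment at every stage.

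Endothelial Pdgfra was lower than in mesenchyme by 5.81-fold, with a log2 fold change of -2.54 ± 0.42 and adjusted p = 0.000884, and the 2 sets of values did not overlap. It was also lower than in cardiomyocytes (log2 fold change -1.73 ± 0.44, adjusted p = 0.00863), a call lost without E8.0 (0.0708) or without E8.25 (0.0650). Against proepicardial cells it was lower by 3.84-fold (adjusted p = 0.0134), a call lost without E8.25 (0.0587), without E9.5 (0.0841) or with clusters (0.0642). The order of means was mesenchyme (52.5 ± 16.0 CPM), proepicardial (40.1 ± 13.9), cardiomyocyte (30.5 ± 19.6) and endothelial (9.24 ± 3.59). The first 3 did not pass a test against each other, with adjusted p of 0.428 for proepicardial against mesenchyme, 0.812 for proepicardial against cardiomyocyte and 0.141 for cardiomyocyte against mesenchyme.

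Erythroid cells were used as a reference for stray receptor RNA. Whether their receptor UMIs were stray, or came from other cells within the gate, was not tested. They had Pdgfra at 3.30, 8.84 and 2.41 CPM and Pdgfrb at 2.94, 7.45 and 1.15 CPM at E8.0, E8.25 and E10.5. At E8.25 endothelial Pdgfra (8.23 CPM) and Pdgfrb (7.30 CPM) were at or below this level, as was cardiomyocyte Pdgfrb (6.93 CPM). They cannot be told apart from it. At E8.0 the counting intervals of endothelial Pdgfra (3.51 to 5.95) and Pdgfrb (3.31 to 5.69) overlapped those of erythroid cells (1.96 to 5.22 and 1.68 to 4.77). Folds and stage ratios that use these levels include any such stray RNA. At E10.5 the endothelial levels, 12.5 and 14.7 CPM, were above the erythroid ones. Only 2 erythroid cells were gated at E9.5, so no reference exists there.

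Pdgfrb, the beta receptor gene of mural cells and their precursors (ENSMUSG00000024620, chromosome 18, 61045127 to 61085067), was highest in mesenchyme in every library. In mesenchyme Pdgfrb was at 24.8 CPM (23.2 to 26.4), 45.6 (43.6 to 47.7), 30.9 (28.5 to 33.4) and 41.1 (39.2 to 43.0). The lowest mesenchyme value was above every value of the other 3 compartments, and the values had no single direction over the stages. Cardiomyocyte Pdgfrb was at 5.86, 6.93, 3.86 and 5.85 CPM, and endothelial Pdgfrb at 4.38, 7.30, 9.71 and 14.7 CPM. In proepicardial cells it was at 23.6, 6.87 and 18.6 CPM, lowest at E9.5.

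Pdgfrb was lower than in mesenchyme in cardiomyocytes (log2 fold change -2.59 ± 0.30, adjusted p = 8.5e-05) and, by 4.06-fold, in endothelial cells (-2.02 ± 0.27, adjusted p = 0.000217). Both calls held in all 12 alternatives. In proepicardial cells it was 2.60-fold lower (-1.38 ± 0.32, adjusted p = 0.0226). That call was lost without the block (0.150), without any one of the E8.25 (0.0582), E9.5 (0.128) and E10.5 (0.138) libraries, and with clusters in place of gates (0.205). Mean levels were 35.6 ± 9.49 CPM in mesenchyme, 16.4 ± 8.60 in proepicardial cells, 9.03 ± 4.38 in endothelial cells and 5.63 ± 1.28 in cardiomyocytes. Neither the proepicardial and endothelial pair (adjusted p = 0.206) nor the endothelial and cardiomyocyte pair (0.180) passed. Pdgfrb was higher in proepicardial cells than in cardiomyocytes (log2 fold change 1.21 ± 0.36, adjusted p = 0.0377), a call lost in 8 of 13 alternatives, including each of the E8.25, E9.5 and E10.5 libraries left out.

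Pericyte genes were read beside Pdgfrb, since the beta receptor is their classical marker. Of 8 pericyte genes tested out of 9, 2 were higher and 3 lower in endothelial cells than in mesenchyme. The shares of all genes called against mesenchyme were 31.9% in endothelial cells, 35.8% in cardiomyocytes and 9.43% in proepicardial cells. Acta2, a smooth muscle actin, was lower (log2 fold change -2.09, adjusted p = 0.0115), and Mcam, also an endothelial adhesion molecule, was higher (3.70, 3.11e-05), as was the channel subunit gene Abcc9 (3.31, 0.00577). In cardiomyocytes 6 were higher and 2 lower than in mesenchyme, led by Acta2 at 5.004 (adjusted p = 9.08e-05), which early heart muscle makes, then Abcc9 (4.96, 0.00052) and Cspg4 (3.71, 0.000247). The median log2 fold changes of the list were -1.005 and 2.70, against -0.10 and -0.06 over all genes. In proepicardial cells 1 gene was higher, Mcam at 2.18 (adjusted p = 0.0170).

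**Figure D4:**
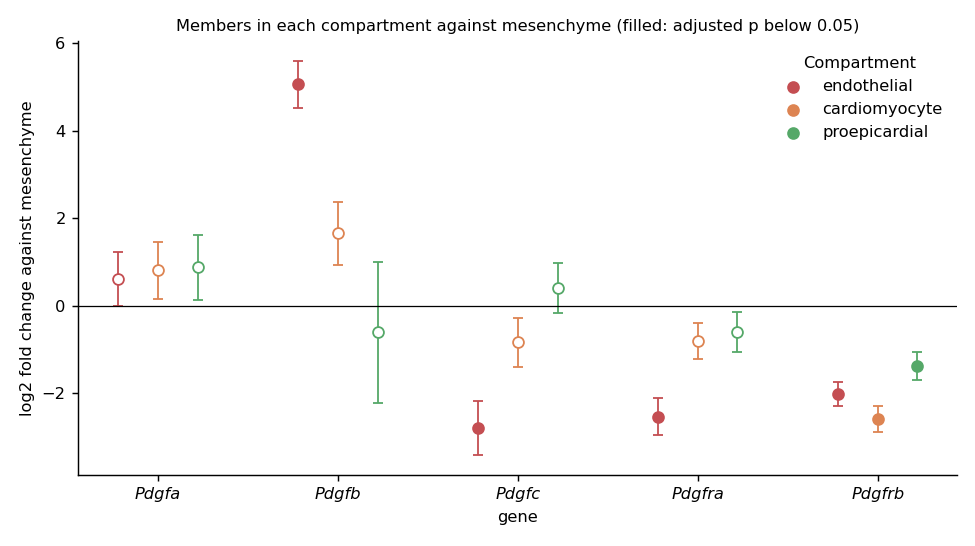
Log2 fold change (y axis) of each gene (x axis) in the endothelial, cardiomyocyte and proepicardial compartments against mesenchyme, from the edgeR fit over libraries. Bars are standard errors, filled points have an adjusted p below 0.05 and open points do not. Pdgfrb is lower in all 3 compartments, and Pdgfb passes the test in endothelial cells, where it is higher by 5.05. The proepicardial Pdgfb point rests on 1 UMI.

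Counted over the 5 genes, 4 were called between endothelial cells and mesenchyme (1 higher, 3 lower), where 31.9% of all 12386 genes were. Between cardiomyocytes and mesenchyme 1 of 5 was called, against 35.8% of all genes, and between proepicardial cells and mesenchyme 1 of 5, against 9.43%. Endothelial cells and cardiomyocytes differed in 3 of 5 (40.4% of all genes), proepicardial cells and cardiomyocytes in 1 of 5 (19.6%), and proepicardial and endothelial cells in 3 of 5 (20.1%). These comparisons share compartments and are not independent. Between E8.0 and E10.5, 3 of 5 genes differed by 2-fold or more beyond counting error in mesenchyme (Pdgfa and Pdgfb lower, Pdgfc higher), where 25.8% of 16397 genes did. The fall of Pdgfb rested on 27 against 2 UMIs, with a log2 ratio of -3.97 (-7.09 to -1.98).

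Over all retained cells 2 of 5 differed in this way, against 25.8% of 18469 genes, Pdgfa at -1.03 (-1.10 to -0.96) and Pdgfc at 4.97 (4.77 to 5.19). Without erythroid cells, which numbered 158 and 1005 in those libraries, Pdgfa had a log2 ratio of -0.74 and no longer reached 2-fold, and that of Pdgfc was 5.26. Among endothelial cells 4 of 5 passed 2-fold (21.5% of genes). Their log2 ratios were -1.24 for Pdgfa, 3.33 for Pdgfc, 1.44 for Pdgfra and 1.75 for Pdgfrb. Among cardiomyocytes 3 of 5 did (22.9%), Pdgfa at 1.02, Pdgfc at 2.06 and Pdgfra at -1.14. Erythroid Pdgfc was also higher in the later library, with 2.48 CPM (69 UMIs) against 0.183 (1 UMI). The endothelial Pdgfc interval of the E8.0 library (0.127 to 0.912) lay within the erythroid one (0.00465 to 1.02). For both receptors those intervals overlapped, as given above. The part of stray RNA in these endothelial ratios was not tested.

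Ligands and receptors were next summed and set against each other as captured UMIs, with no allowance for differences in capture between genes. In mesenchyme the 3 ligands summed to 67.2, 15.6, 25.2 and 57.8 CPM and the 2 receptors to 62.7, 87.7, 87.6 and 114 CPM. The ligand sum was slightly above the receptor sum at E8.0 and below it in the other 3 libraries, with log2 ratios of ligand over receptor of 0.10, -2.49, -1.80 and -0.98. In endothelial cells the ligands summed to 43.8, 48.0, 30.3 and 26.6 CPM and the receptors to 8.99, 15.5, 21.3 and 27.2 CPM. Their log2 ratios were 2.28, 1.63, 0.51 and -0.04, so that ligands exceeded receptors most at E8.0 and were level with them at E10.5.

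In cardiomyocytes the log2 ratios were -0.55, -2.27, 1.05 and 1.53, with receptors above ligands at both early stages and ligands above receptors at both late ones. Proepicardial cells had -1.31, -0.10 and 0.71 from E8.25 to E10.5. Over all cells receptors exceeded ligands in 4 of 4 libraries, with log2 ratios of -0.69, -1.91, -0.17 and -0.13 (the exact two-sided sign-flip permutation test gave the smallest p that 4 libraries allow, which is above 0.05). Within compartments the exact test gave p = 0.25 for mesenchyme (mean -1.29 ± 1.11, SD, n = 4), 0.25 for endothelial cells (1.10 ± 1.05), 1 for cardiomyocytes (-0.06 ± 1.72) and 0.75 for proepicardial cells (-0.23 ± 1.02, n = 3, smallest possible p 0.25). The design cannot reach 0.05 here, and in mesenchyme 3 of 4 libraries had more receptor while in endothelial cells 3 of 4 had more ligand.

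**Figure D5:**
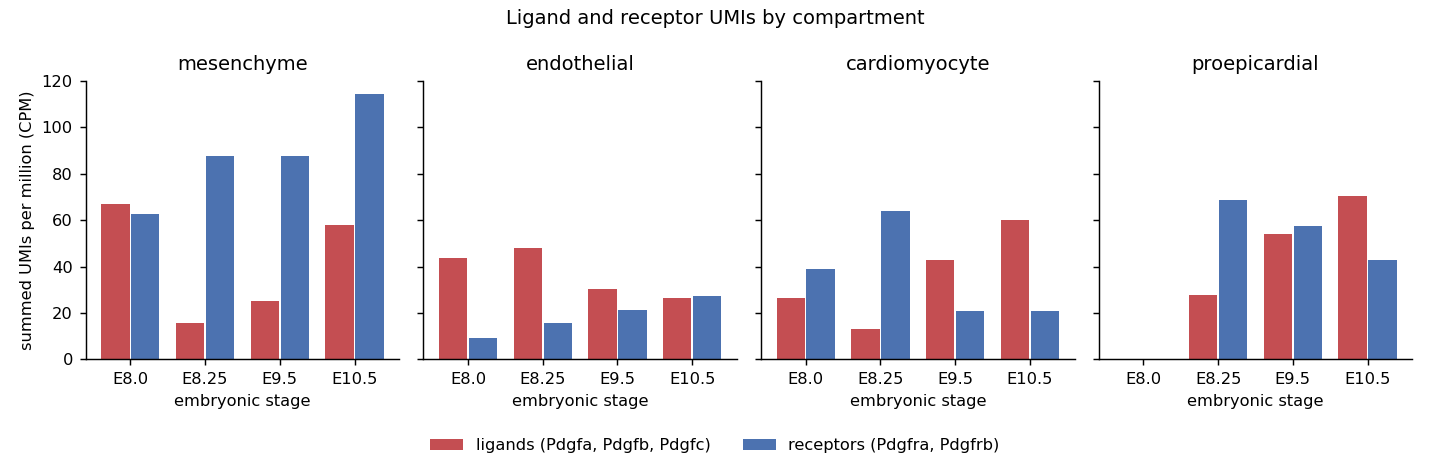
Summed CPM (y axis, from 0, shared) of the 3 ligand genes and of the 2 receptor genes in each compartment at each stage (x axis). Bars are single libraries without replicates, and the proepicardial compartment has no bar at E8.0, where it held 5 cells. Receptors exceed ligands in mesenchyme from E8.25, and ligands exceed receptors in endothelial cells up to E9.5.

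Joint detection was read in mesenchyme cells thinned to 10000 UMIs. Both receptors were detected together in 7.44%, 10.54%, 9.20% and 15.6% of cells, against 6.28%, 11.4%, 9.79% and 14.8% for the product of the separate shares. Pdgfa and Pdgfra were detected together in 9.59%, 4.57%, 1.82% and 2.58%, against products of 10.2%, 3.90%, 2.98% and 3.70%. At E10.5, 5.40% of Pdgfra-positive and 9.89% of Pdgfra-negative mesenchyme cells had Pdgfa, and at E8.0 the shares were 32.2% and 35.1%. Pdgfc and Pdgfra were together in 15.5% of cells at E10.5, against a product of 16.5%. Detection of each gene is partial at this depth, so these shares understate joint expression.

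The other PDGF genes of the tables were Pdgfd, a further beta-receptor ligand, and Pdgfrl, a receptor-like protein without a kinase. Pdgfd averaged 8.06 ± 3.27 CPM in proepicardial cells, 3.87 ± 1.24 in cardiomyocytes, 2.05 ± 0.52 in mesenchyme and 2.04 ± 1.12 in endothelial cells. It was higher in proepicardial cells than in mesenchyme (log2 fold change 1.85 ± 0.41, adjusted p = 0.0184) and than in endothelial cells (1.92, 0.00882), and in cardiomyocytes than in mesenchyme (1.06, 0.0472). Pdgfrl was lower than in mesenchyme in endothelial cells (-1.39, adjusted p = 0.0287) and in cardiomyocytes (-2.19, 0.00746), and over all cells it was at 0.666, 0.707, 3.36 and 5.65 CPM.

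Genes that process PDGF ligands were described as a list of 8, of which 6 were tested. For this list and those that follow, 31.9% of all genes were called in endothelial cells against mesenchyme. In cardiomyocytes 35.8% were, and in proepicardial cells 9.43%. In endothelial cells 3 were higher than in mesenchyme and 0 lower (median log2 fold change 0.57 against -0.10 over all genes). They were Plaur, the urokinase receptor (1.42, adjusted p = 0.0201), and the proprotein convertases Furin (0.99, 0.0116) and Pcsk7 (0.72, 0.00921). Cardiomyocytes had 1 higher, Furin (0.92, 0.0172), and 1 lower, the plasminogen activator Plat (-1.41, 0.0342), with a median of -0.23. Proepicardial cells had 1 higher, the convertase Pcsk5 (2.22, 0.00653), and 0 lower, with a median of 0.17.

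Of 9 genes for ligand retention and co-receptors, all were tested. In endothelial cells 2 were higher, the matrix proteins Hspg2 (perlecan, 2.40, adjusted p = 5.63e-05) and Sparc, which binds PDGF-B (1.23, 0.00143). The endocytic receptor Lrp1 was lower (-1.69, 4.31e-05), and the median was 0.49. In cardiomyocytes 3 were higher and 1 lower, with a median of 0.46, led by the integrin subunit Itgb3 (5.43, 1.25e-06) and the proteoglycan Cspg4 (3.71, 0.000247). The lower one was Ndst1, a heparan sulfate enzyme (-0.87, 0.00591). In proepicardial cells 2 were higher and 0 lower, with a median of 0.54: Sparc (1.89, 0.00169) and the co-receptor Nrp1 (1.68, 0.00236).

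The 16 genes of receptor signalling were all tested, and 7 were higher and 2 lower in endothelial cells than in mesenchyme (median 0.32). Among the higher ones were the transcription factor Stat3 (1.997, adjusted p = 0.00027), the docking protein Gab1 (1.56, 0.00842) and the adaptor Shc1 (1.23, 3.1e-05), all used by many receptors. In cardiomyocytes 3 were higher and 2 lower (median 0.05), where 35.8% of all genes were called. Stat3 was higher (0.90, 0.0392), and Pik3r1, a regulatory subunit of PI3 kinase (-1.52, 0.000411), and the phospholipase Plcg1 (-0.65, 0.0237) were lower. In proepicardial cells 1 was higher, Pik3cb (1.498, 0.0436), and 1 lower, Pik3r1 (-1.40, 0.00987), with a median of -0.13. Against endothelial cells, proepicardial cells had 0 higher and 8 lower (median -0.46), where 20.1% of all genes were called.

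Of 12 immediate early genes and targets of the serum response factor, which many growth factors and also tissue dissociation induce, 10 were tested. In endothelial cells 5 were higher and 0 lower than in mesenchyme (median 0.62), led by Junb (2.76, adjusted p = 4.49e-05), Egr1 (1.99, 0.0290) and Jun (1.38, 0.00233). In cardiomyocytes Fos (3.21, 0.00125) and Srf itself (1.29, 1.1e-05) were higher and Myc lower (-3.12, 4.84e-05), with a median of 0.29. In proepicardial cells 1 was lower, Ier2 (-1.04, 0.00364), with a median of 0.18.

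The genes whose log2(CPM + 1) most resembled each PDGF gene were found among 7581 genes over 15 sums of compartment and library, which share libraries and depth. Pdgfb was closest to Ctsh, a cathepsin (Pearson r = 0.98), then to Abi3, the arterial connexin gene Gja4, Clec1b and Rasip1, with r of 0.96 to 0.97. Pdgfra was closest to Robo2, a Slit receptor (r = 0.94), followed by Ift27, Ewsr1, Ift46 and Kctd15. Pdgfrb was closest to Tmem119 (r = 0.90), followed by Clmp, Rab23, Ehmt2 and Adgra3, and Pdgfc to Gps2 (0.92), followed by Fam172a, Cdk14, Fam69b and Cops3. For Pdgfa the best was Efr3a at 0.77, then Cd44, Rock2, D17Wsu92e and Dnm1l. Among the 5 genes themselves r ran from -0.85 for Pdgfb with Pdgfra to 0.58 for Pdgfra with Pdgfrb.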

How the data were processed

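Single-cell RNA-seq counts (10x Genomics 3' kit, version 2 chemistry) were taken as deposited: the authors aligned reads to mm10 and counted UMIs with Cell Ranger 3.1.0, per the submitters' processing notes. Cells with at least 1000 genes and at most 10% mitochondrial UMIs were kept. Scrublet's own threshold marked few doublets, so the cells with the top scores were removed at 0.8% per 1000 cells. UMIs were summed per library and compartment, sums under 30 cells were left out, and compartments were compared with edgeR 4.0.16 (quasi-likelihood test, TMM sizes, library as a block, Benjamini-Hochberg adjustment, threshold 0.05; R 4.3.3). Cells in 2 or more specific gates were left out, and gates for erythroid, macrophage, megakaryocyte, branchiomeric muscle, epithelial and neural crest cells were applied in the same way. Stages had 1 library each, so their ratios carry exact counting intervals (scipy 1.17.1) and no test. DESeq2 1.42.0, Leiden clusters, other gates and scalings, and leaving out each library were alternatives. The fits were tested on simulated data. Genes named from a list were up to 3 called ones per comparison with mesenchyme, by size of change. The 5 genes and the lists were chosen with earlier results of these data known. Gate thresholds were set on marker distributions without reading the 5 genes.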

Additional observations from a re-analysis of the deposited data

Results flagged for a closer look

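In mesenchyme, Pdgfa at E8.0 lay apart from the other 3 libraries: its gap to the nearest, divided by the whole range, was 0.902, above the Dixon 95% critical value for 4 samples. Chance flags about 1 in 20 such groups, and 15 were looked at. The libraries are of different stages, so a difference of stage cannot be told apart from a difference of 1 library. The nearest library, E8.25, came from the upper body, as did the E8.0 one.

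Pdgfa moved in opposite directions between E8.0 and E10.5 in different compartments. Its log2 ratio in mesenchyme minus that in cardiomyocytes was -3.81, and in endothelial cells minus cardiomyocytes -2.26. For Pdgfra the corresponding differences were 2.09 and 2.58. With 1 library per stage none of these differences was tested.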

How the results depend on the processing

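Of 604 alternative values, 501 kept direction and side of the threshold, or stayed within 1.5 times the reported count. The number of the 5 genes called between cardiomyocytes and mesenchyme (1) was 2 with DESeq2, with a stricter gate and with gates on thinned cells, and 1 to 3 with a library left out. Between proepicardial cells and mesenchyme (1) it was 0 with clusters and 0 to 1 with a library left out. Between proepicardial cells and cardiomyocytes (1) it was 0 without the E8.25 proepicardial sum, with a stricter gate, with thinned cells and with clusters, and 0 to 1 with a library left out. Between endothelial cells and cardiomyocytes (3) it was 1 to 2 with a library left out, and between proepicardial and endothelial cells (3) 1 with clusters and 1 to 3 with a library left out. The count over all cells between E8.0 and E10.5 (2) was 1 with haemoglobin, mitochondrial and ribosomal protein genes out of the totals and 1 without erythroid cells. Mean ligand exceeded receptor in 1 compartment, in 3 with a stricter gate, in 2 with Pdgfd added, and in 1 to 3 with a library left out. Except where the construction leaves fewer cells or libraries, the cause was not tested.

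Without the library as a replicate block, 0 of 5 genes were called between proepicardial cells and either mesenchyme or cardiomyocytes, and Pdgfa reversed to -0.0531 against cardiomyocytes and -0.0325 against endothelial cells. Each number is 1 library, so the block is the library that both sums came from.

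The log2 fold changes that reversed were none of them called. With a library left out, proepicardial cells against mesenchyme gave -4.40 to 0.294 for Pdgfb and -0.491 to 1.51 for Pdgfc, against cardiomyocytes -0.257 to 0.699 for Pdgfa and -0.290 to 0.486 for Pdgfra, and against endothelial cells -0.590 to 0.814 for Pdgfa. Endothelial cells against cardiomyocytes gave -0.817 to 0.358 for Pdgfa, and Nfatc1 cells -0.221 to 0.247 for Pdgfra and -0.590 to 0.00966 for Pdgfb. With other gates, Pdgfb of proepicardial cells against mesenchyme was 0.16 (stricter) and 0.13 (looser), and Pdgfa against cardiomyocytes -0.0939 (looser), -0.00392 (no doublet removal) and -0.0216 (clusters). Pdgfc of cardiomyocytes against mesenchyme was 0.43 with clusters. Pdgfra by Nfatc1 was 0.0218 with DESeq2 and 0.285 with a stricter gate. The arterial contrast gave no value with a stricter gate, without E9.5 or without E10.5.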

Other observations

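Cells gated as branchiomeric muscle, the muscle progenitors of the pharyngeal arches, numbered 202 at E9.5 and 258 at E10.5. Their Pdgfa was at 99.0 CPM (90.3 to 108) and 91.9 CPM (83.3 to 101), and their Pdgfc at 48.3 and 100.5 CPM. Receptors were low in the same cells, with Pdgfra at 3.31 and 3.87 CPM and Pdgfrb at 9.09 and 4.30 CPM. These cells held 26.9% and 19.3% of all Pdgfa UMIs while they were 5.15% and 3.43% of the retained cells.

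The 20 cells gated as megakaryocytes at E9.5 had Pdgfb at 16.4 CPM (7.07 to 32.3) from 8 UMIs, and the 20 at E10.5 had 45.1 CPM (27.1 to 70.4) from 19 UMIs. Platelets, which megakaryocytes release, are the source from which PDGF was named. Sums of so few cells entered no test.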
